A study of Homo sapiens with 38 samples.

Results

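The comparison set H9 cells given recombinant Wnt3a for 96 h against H9 cells given it for 120 h, and covered all genes. H9 is a widely used line of human embryonic stem cells, and Wnt3a is a secreted ligand that stabilises beta-catenin. The members were the 2 libraries labelled 96 h and the 2 labelled 120 h, 4 of the 38 samples of the series, which also holds earlier Wnt3a hours, a CHIR99021 arm and an arm with an inducible beta-catenin. Both groups were unmodified H9 cells and received 240 ng/ml Wnt3a. In both, RPMI1640 with B27 supplement had taken the place of mTeSR1 when the ligand was first added, and no culture with the new medium alone enters the comparison. The question was what set the 96 h libraries apart from the hour that followed.

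In the embryo, WNT, NODAL and FGF signals induce the primitive streak, and its cells then leave as definitive endoderm or as mesoderm of several kinds. BMP signals steer mesoderm towards lateral and extraembryonic fates. Embryonic stem cells pass through related states in culture. They also divide fast, with much of the cycle spent copying DNA, so transcripts of replication factors, histones and ribosome assembly factors are abundant in them.

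After division by the constants found in the deposited table, the 96 h libraries held 17.2 and 15.9 M estimated counts, and the 120 h libraries 11.9 and 11.2 M, within a range of 2.45 to 65.7 M for the series. Across genes the replicates correlated at 0.972 at 96 h and 0.958 at 120 h. Levels are given as CPM, counts per M counts after TMM scaling, with replicate 1 before replicate 2. Differences are log2 values fitted by edgeR with their standard errors, n = 2 and 2, and a gene was called at an adjusted p below 0.05. A positive difference is a higher level at 96 h. Of the hours nearest to 96 h, 72 h had only 1 distinct library of 26.7 M, since its 2 deposited columns were identical, and its values are shown without an error. The labels call the replicates biological but say neither whether they came from separate cultures nor whether the 96 h and 120 h cells were processed together. P-values therefore measure a spread between libraries, and it was estimated from all 37 distinct libraries of the series together. With only the 96 h and 120 h groups in the fit, 2917 genes were called in place of 5537. The hour and any handling shared by the 2 libraries of an hour cannot be told apart.

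Of 22 markers of primed pluripotency 9 were higher at 96 h and 6 lower, with a median of 0.33, and 6 and 4 without 96 h replicate 1. Over all genes tested 11% were called higher and 11.8% lower. POU5F1, a core pluripotency factor, stood at 495 and 412 CPM at 96 h and at 348 and 382 at 120 h. SOX2, its partner, stood at 66.9 and 71.4 CPM, then at 46.6 and 59.1, a difference of 0.39 ± 0.15 that was not called (adjusted p = 0.0692). Its call depended on the setting. It was made with upper-quartile scaling (0.43, adjusted p = 0.0320) and by DESeq2's Wald test (0.40, adjusted p = 0.0263), and not in the Wnt3a arm only. NANOG was at 102 and 80.7 CPM at 96 h and at 35.2 and 47.0 at 120 h, higher at 96 h by 1.15 ± 0.24 (adjusted p = 9.13e-04). The groups did not overlap for any of the 3, as was the case for 55.8% of all genes tested. The 6 lower markers were PODXL (-1.25 ± 0.16), a surface sialomucin, L1TD1 (-0.79 ± 0.18), CD24 (-0.76 ± 0.12), a surface glycoprotein, DNMT3B (-0.73 ± 0.10), a DNA methyltransferase, LIN28A (-0.51 ± 0.10), an inhibitor of let-7 processing, and ZFP42 (-0.47 ± 0.12), a zinc finger factor. PODXL was at 576 and 568 CPM at 96 h and at 1518 and 1205 at 120 h (adjusted p = 2.79e-06), with 489 at 72 h. The call of POU5F1, 0.31 ± 0.11 with adjusted p = 0.0309, was lost without 96 h replicate 1 (0.17) or 120 h replicate 1 (0.23). It was also lost in a fit of the Wnt3a arm only (0.31, adjusted p = 0.107) and of the groups compared only (0.31, adjusted p = 0.181). With no filter on low counts it was lost as well (0.27, adjusted p = 0.188). In bulk RNA, a change in the number of cells of a type and a change in RNA per cell cannot be told apart.

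Of 24304 genes tested, 5537 were called, 2662 higher at 96 h (11%) and 2875 lower (11.8%). The median difference over all genes was 0.03, and the median size of the called differences was 0.81. Larger differences lay mostly on the side of higher levels at 96 h: of 2013 called genes that differed by more than 1 on the log2 scale, 1362 were higher and 651 lower. The libraries of the 2 hours did not overlap for 5481 of the called genes, and over all genes tested 55.8% did not overlap. Without 96 h replicate 1, 3049 genes were called. A test against a difference of 0.58 in place of 0 called 1161, 689 higher and 472 lower.

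**Figure D1:**
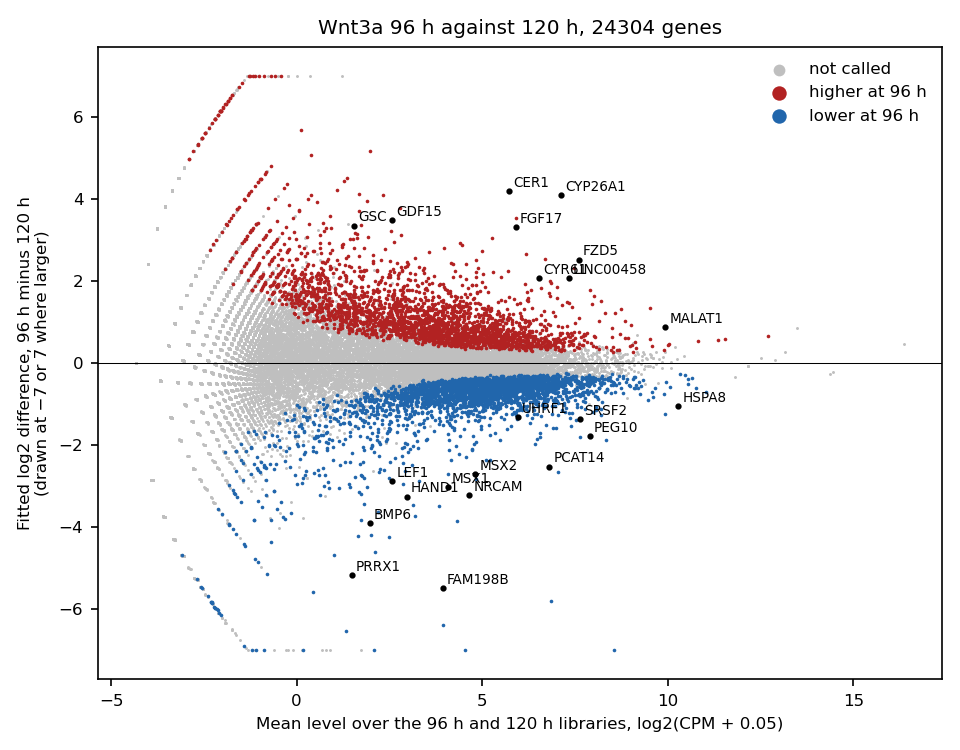
Log2 difference of 96 h over 120 h (vertical axis) against mean abundance as log2 CPM (horizontal axis) for the 24304 genes tested, 1 point per gene, with called genes in colour and differences past 7 drawn at 7. Among genes of middle abundance CER1 (4.18) and CYP26A1 (4.09) lie highest of the labelled genes, and FAM198B (-5.47) and PRRX1 (-5.16) lowest.

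Of the 15 protein-coding genes with the largest called differences towards 96 h, 3 belong to the list of primitive streak genes (CER1, GSC and FGF17). CER1, a secreted inhibitor of NODAL, BMP and WNT, was at 115 and 83.6 CPM at 96 h and at 6.03 and 4.85 at 120 h, a difference of 4.18 ± 0.26 (adjusted p = 9.91e-11). LEFTY2, a NODAL antagonist, was at 11.9 and 6.95 CPM, then at 0.590 and 0.499 (4.10 ± 0.43, adjusted p = 8.98e-08). CYP26A1, the enzyme that degrades retinoic acid, was at 298 and 229 CPM, then at 23.8 and 7.14 (4.09 ± 0.36, adjusted p = 8.66e-08). All 3 were many times higher in both 96 h libraries than in either 120 h library. GLRA4, a glycine receptor subunit gene, was second in size, at 7.41 and 4.59 CPM, then at 0.459 and 0.214 (4.12 ± 0.71, adjusted p = 9.49e-05). The 72 h library already held more CER1 (273 CPM) and LEFTY2 (32.6) than the 96 h libraries, but less CYP26A1 (164). Other protein-coding genes among the 15 were CDA (3.95 ± 0.45), which deaminates cytidine, EYA2 (3.71 ± 0.52), a transcriptional coactivator, SHISA2 (3.54 ± 0.32), an inhibitor of WNT and FGF receptor maturation, GDF15 (3.49 ± 0.45), a stress-induced cytokine, IFIT2 (3.35 ± 0.54), an interferon-induced protein, GSC (3.35 ± 0.40), a homeobox factor of the organizer, and FGF17 (3.30 ± 0.29), a fibroblast growth factor. NR0B1 (3.23 ± 0.51), an orphan nuclear receptor, TNR (3.16 ± 0.59), a matrix protein of the nervous system, TRPM2 (3.15 ± 0.54), a cation channel, and ZNF385D (3.13 ± 0.76) complete the 15. The call of ZNF385D was lost without 96 h replicate 1 (2.32, adjusted p = 0.0724) or 120 h replicate 2 (2.27, adjusted p = 0.0557).

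The 15 coding genes lowest at 96 h included transcription factors and secreted proteins. IHH, a hedgehog ligand, had 0 counts in both 96 h libraries and stood at 5.63 and 11.2 CPM at 120 h, at least 117-fold lower at 96 h with 3 counts over the group in place of 0 (adjusted p = 2.52e-06). FAM198B was at 0.484 and 0.851 CPM, then at 23.9 and 36.0 (-5.47 ± 0.53, adjusted p = 7.88e-08). PITX1, a homeobox factor of the hindlimb and lateral mesoderm, was at 0.436 and 0.236 CPM, then at 9.17 and 7.35 (-4.60 ± 0.59, adjusted p = 3.62e-06). These 3 genes were at or below 1 CPM at 96 h and above 5 CPM in both libraries a day later. PRRX1 (-5.16 ± 0.65), a mesenchymal homeobox factor, POSTN (-4.21 ± 0.59), a matrix protein of mesenchyme, BMP6 (-3.91 ± 0.39), a BMP ligand, MEIS1 (-3.62 ± 0.52), a partner of HOX proteins, and APOA1 (-3.47 ± 0.40), an apolipoprotein, were also among the 15, with DHRS2 (-4.20 ± 0.45), SYTL5 (-3.84 ± 0.39), FCGR2A (-3.44 ± 0.66), an Fc receptor, NRCAM (-3.22 ± 0.38), a cell adhesion protein, and ISL1 and HAND1, described with the mesoderm genes. DIO2, a deiodinase, was at 0.0968 and 0.757 CPM, then at 2.75 and 9.49 (-3.81 ± 1.01, adjusted p = 0.00826), and its call was lost without 96 h replicate 1 (-3.00, adjusted p = 0.112) or 120 h replicate 2 (-2.69, adjusted p = 0.107).

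**Figure D2:**
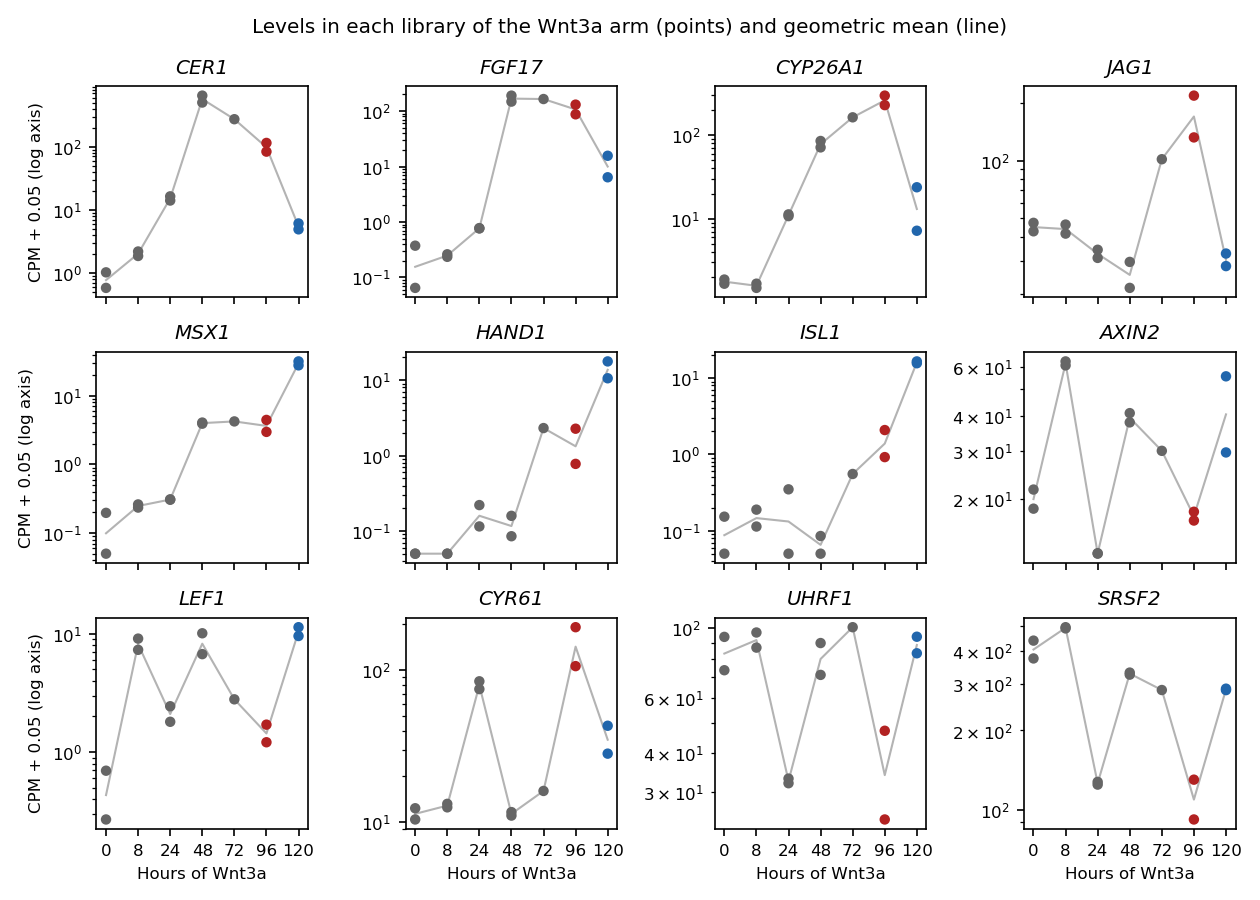
CPM on a log axis for genes named in the text, 1 point per Wnt3a library, by hour, with 96 h in red, 120 h in blue and the line at the geometric mean. CER1 goes from 273 CPM at 72 h to 6.03 and 4.85 at 120 h, while CYR61 is high at 96 h, at 192 and 106, with lower values on both sides.

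The 72 h library was set beside each call, as a description. Both 96 h libraries lay above it in 2035 of the 2662 higher genes (76.4%), and below it in 2526 of the 2875 lower genes (87.9%). They are then said to lie outside the range of 72 h and 120 h. In 225 (8.45%) and 190 (6.61%) the 72 h library lay past both 96 h libraries, which are then said to lie between the hours. The place of single 120 h libraries did not enter, and 56 called genes overlapped between 96 h and 120 h. The calls were made with the same 96 h libraries, which favours 96 h as an extreme hour. These shares are therefore no evidence that 96 h stands apart from both hours. Lists varied in this respect. Among developmental lists the 96 h libraries lay between the hours in 8 of 11 higher streak genes and 12 of 15 lower BMP targets. The same held for 7 of 8 lower amnion and trophoblast genes. They lay outside in 5 of 6 higher genes of the retinoic acid pathway (83.3%) and 3 of 3 higher Hedgehog genes, against 76.4% of all higher genes. For lower WNT targets they lay outside in 6 of 10 (60%) and between in 3 (30%), against 87.9% and 6.61% of all lower genes. Developmental lists are described before those of growth and stress. In both, counts of calls are to be read against 11% higher and 11.8% lower over all genes tested. Over coding genes the shares were 13.8% and 16.6%.

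Primitive streak and mesendoderm genes were higher at 96 h in 11 of 20 measured members and lower in 1, with a median difference of 1.23 against 0.03 for all genes. GSC was at 5.86 and 4.63 CPM at 96 h and at 0.655 and 0.357 at 120 h. FGF17 was at 131 and 87.4 CPM, then at 15.6 and 6.35. MIXL1, a homeobox factor of the streak, was at 15.2 and 23.3 CPM, then at 6.94 and 5.64 (1.61 ± 0.40, adjusted p = 0.00621). In each of these genes both 96 h libraries exceeded both 120 h libraries, where 55.8% of all genes tested had no overlap between these hours. Both 96 h libraries lay below the 72 h library, which held 12.7, 165 and 82.0 CPM of these genes. In all, 8 of the 11 higher members lay between the 72 h and 120 h levels, and 2 lay outside. EVX1, a posterior streak factor, was the lower member, at 3.19 and 4.16 CPM, then 18.9 and 12.3 (-2.08 ± 0.50, adjusted p = 0.00550). T, which encodes brachyury, was low at both hours, with 1.16 and 0.709 CPM, then 0.655 and 0.285, and was not called (0.96 ± 0.49, adjusted p = 0.176). EOMES, a T-box factor of mesendoderm, stood at 107 and 121 CPM, then at 79.2 and 60.0 (0.71 ± 0.33, adjusted p = 0.141).

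NODAL and ACTIVIN targets were higher at 96 h in 8 of 14 members and lower in 3, with a median of 0.96, and 5 were higher without 120 h replicate 2. NODAL itself, the ligand, was at 3.29 and 3.50 CPM, then at 1.90 and 1.21 (1.11 ± 0.35, adjusted p = 0.0231), and the 72 h library held 24.5. GDF3, a related ligand, was at 10.2 and 11.8 CPM, then at 2.69 and 4.57 (1.60 ± 0.29, adjusted p = 1.31e-04). TDGF1, the NODAL coreceptor, was at 105 and 88.4 CPM, then at 57.2 and 38.5 (1.01 ± 0.16, adjusted p = 1.90e-05). In these 3 genes, and in the antagonists CER1 and LEFTY2, both 96 h libraries exceeded both 120 h libraries. Over all genes tested the hours did not overlap in 55.8%. The 3 lower members were FST, which binds ACTIVIN (42.8 and 34.0 CPM, then 126 and 152, -1.85 ± 0.16, adjusted p = 4.02e-09), CFC1, a coreceptor like TDGF1 (4.55 and 8.27, then 29.6 and 25.7, -2.11 ± 0.38, adjusted p = 2.46e-04), and SMAD7, an inhibitor shared with the BMP pathway (18.8 and 19.2, then 47.5 and 47.2, -1.32 ± 0.25, adjusted p = 2.06e-04).

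Presomitic and somitic mesoderm genes were higher at 96 h in 7 of 18 members and lower in 0, with a median of 1.21, and 4 were higher without 120 h replicate 2. TBX6, a T-box factor of presomitic mesoderm, was at 4.60 and 3.36 CPM, then at 0.852 and 0.927 (2.16 ± 0.33, adjusted p = 1.83e-05). NOTCH pathway genes were higher in 7 of 16 members and lower in 1, with a median of 0.70, and 5 were called without 96 h replicate 1. Among the NOTCH ligands, JAG1 was at 219 and 132 CPM, then at 32.6 and 28.0 (2.53 ± 0.18, adjusted p = 9.39e-11), and DLL1 at 4.50 and 4.87, then at 0.786 and 1.21 (2.23 ± 0.39, adjusted p = 1.17e-04). Both 96 h libraries exceeded both 120 h libraries in these ligands, where 55.8% of all genes tested had no overlap between these hours. In the retinoic acid pathway 6 of 15 members were higher and 1 was lower, with a median of 0.43. Besides CYP26A1, its relative CYP26C1 had 0 counts at 120 h and 1.26 and 1.51 CPM at 96 h, at least 13.5-fold higher (adjusted p = 0.00265). CRABP1, which carries retinoic acid in the cytosol, was at 73.8 and 49.5 CPM, then at 28.8 and 32.2 (1.02 ± 0.14, adjusted p = 4.77e-06). Of 18 neural ectoderm genes 5 were higher and 0 lower, with a median of -0.07, and 2 were higher without 96 h replicate 1 and 1 without 120 h replicate 2.

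BMP targets were the list with the largest share of calls in 1 direction among the developmental lists: 15 of 16 were lower at 96 h and 0 higher, with a median of -1.90. MSX1, a homeobox factor, was at 4.40 and 2.93 CPM at 96 h and at 31.7 and 27.8 at 120 h (-3.02 ± 0.28, adjusted p = 3.76e-08). Its relative MSX2 was at 7.79 and 7.14 CPM, then at 42.4 and 54.9 (-2.70 ± 0.29, adjusted p = 8.86e-08). GATA3, a zinc finger factor of amnion and trophoblast, was at 4.60 and 4.92 CPM, then at 19.5 and 15.7 (-1.88 ± 0.50, adjusted p = 0.00847). MSX1, MSX2 and GATA3 were thus several times lower at 96 h, with no overlap between the hours, as was the case for 55.8% of all genes tested. The feedback inhibitors moved the same way. NOG, a secreted antagonist, was at 0.436 and 0.142 CPM, then at 2.10 and 1.78 (-2.73 ± 0.60, adjusted p = 0.00114). GREM1, another, was at 7.89 and 8.04 CPM, then at 40.9 and 37.5 (-2.30 ± 0.28, adjusted p = 6.50e-07). BAMBI, a pseudoreceptor, was at 49.6 and 39.4 CPM, then at 151 and 139 (-1.70 ± 0.17, adjusted p = 2.33e-08), and SMAD6, an inhibitory SMAD, at 37.9 and 44.8, then at 126 and 103 (-1.47 ± 0.25, adjusted p = 7.62e-05).

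ID1, a direct BMP target, was the 1 member of the list that was not called. It stood at 220 and 166 CPM at 96 h and at 219 and 162 at 120 h, a difference of 0.02 ± 0.17 (adjusted p = 0.969), while ID2 (-1.24 ± 0.18, adjusted p = 8.86e-06), ID3 (-0.71 ± 0.12, adjusted p = 7.77e-05) and ID4 (-1.25 ± 0.25, adjusted p = 4.24e-04) were lower at 96 h. The 72 h library held 88.4 CPM of ID1. For 12 of the 15 lower BMP targets the 96 h libraries lay between 72 h and 120 h. BMP ligands, picked after their values had been seen, were also lower at 96 h. BMP4 was at 3.58 and 5.86 CPM, then at 9.37 and 10.9 (-1.10 ± 0.33, adjusted p = 0.0139). BMP7 was at 10.3 and 8.75 CPM, then at 43.2 and 21.4 (-1.77 ± 0.29, adjusted p = 6.50e-05). BMP2 was at 109 and 113 CPM, then at 270 and 131 (-0.85 ± 0.26, adjusted p = 0.0194), so that its 120 h level was set mainly by replicate 1.

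Of the mesoderm, amnion and ectoderm lists that share members with the BMP targets, some lay on the same side and some did not. Neural crest and border genes, which include MSX1 and MSX2, were higher in 4 of 18 and lower in 3 (median 0.48), and endothelial and blood genes, which include GATA2, were higher in 2 of 19 and lower in 2 (median 0.01). Over all genes tested 11% were higher and 11.8% lower, and over coding genes 13.8% and 16.6%. The endothelial counts and the lower neural crest count did not stand out from these shares. Lateral plate and cardiac mesoderm genes were lower at 96 h in 7 of 18 and higher in 1, with a median of -1.28, and 4 were lower without 120 h replicate 2 or without 96 h replicate 1. HAND1, a factor of lateral and extraembryonic mesoderm, was at 0.726 and 2.22 CPM, then at 10.5 and 17.7 (-3.25 ± 0.58, adjusted p = 2.38e-04). ISL1, a LIM homeobox factor of heart progenitors and amnion, was at 0.871 and 2.03 CPM, then at 15.6 and 16.5 (-3.46 ± 0.54, adjusted p = 2.47e-05). Both were near 1 CPM at 96 h and above 10 in both libraries at 120 h. Amnion and trophoblast genes, which include HAND1, ISL1, GATA2 and GATA3, were lower in 8 of 15 and higher in 1, with a median of -1.43. The higher member was GABRP, a GABA receptor subunit of amnion, at 9.97 and 8.46 CPM, then at 1.77 and 2.57 (2.09 ± 0.40, adjusted p = 3.61e-04). KRT7, a keratin that marks trophoblast and amnion, was near 0 throughout, at 0.726 and 0.473 CPM, then at 0.262 and 0.571. Definitive endoderm genes were lower in 7 of 19 and higher in 1, with a median of -0.39, and without 120 h replicate 1 they were lower in 4 and higher in 2. HNF4A, a factor of gut and liver, was at 1.65 and 2.84 CPM, then at 11.5 and 12.9 (-2.44 ± 0.52, adjusted p = 7.98e-04), whereas SOX17, an early endoderm factor, differed by 0.08 ± 0.28 (adjusted p = 0.898).

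WNT feedback genes and direct targets were lower at 96 h than at 120 h in 10 of 20 members and higher in 3, with a median of -0.87. AXIN2, the standard readout of the pathway, was at 18.0 and 16.7 CPM at 96 h and at 55.6 and 29.5 at 120 h (-1.30 ± 0.19, adjusted p = 1.92e-05). LEF1, a DNA-binding partner of beta-catenin, was at 1.16 and 1.66 CPM, then at 11.3 and 9.49 (-2.88 ± 0.33, adjusted p = 5.37e-07). NKD1, an intracellular antagonist, was at 19.6 and 18.8 CPM, then at 81.0 and 60.4 (-1.88 ± 0.27, adjusted p = 3.49e-05). In all 3 both 96 h libraries lay below both 120 h libraries, where 55.8% of all genes tested had no overlap between these hours. AXIN2 and LEF1 at 96 h also lay below their 72 h levels of 29.9 and 2.74 CPM. SP5, a transcription factor induced by WNT, overlapped between the hours, with 56.4 and 32.7 CPM against 67.5 and 50.4 (-0.41 ± 0.24, adjusted p = 0.259). CTNNB1, which encodes beta-catenin, was at 427 and 407 CPM, then at 560 and 536 (-0.39 ± 0.10, adjusted p = 0.00478). A higher member was DKK4, a secreted antagonist, at 2.18 and 1.09 CPM, then at 0.131 and 0.143 (3.52 ± 0.76, adjusted p = 0.00152).

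Receptors and ligands of the pathway did not share that direction. Of 18 receptors and coreceptors 6 were higher and 4 lower, with a median of 0.20, and without 96 h replicate 1 only 2 were higher and 2 lower. FZD5 was the receptor with the largest difference, at 392 and 267 CPM at 96 h, 73.9 and 40.8 at 120 h (2.52 ± 0.19, adjusted p = 3.48e-10) and 126 at 72 h. Of 13 ligands 2 were higher, WNT8A (17.2 and 8.98 CPM, then 1.83 and 4.71, 2.01 ± 0.35, adjusted p = 1.51e-04) and WNT3A (2.42 and 1.47, then 0.393 and 0.357, 2.35 ± 0.46, adjusted p = 3.39e-04), and 1 was lower.

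**Figure D3:**
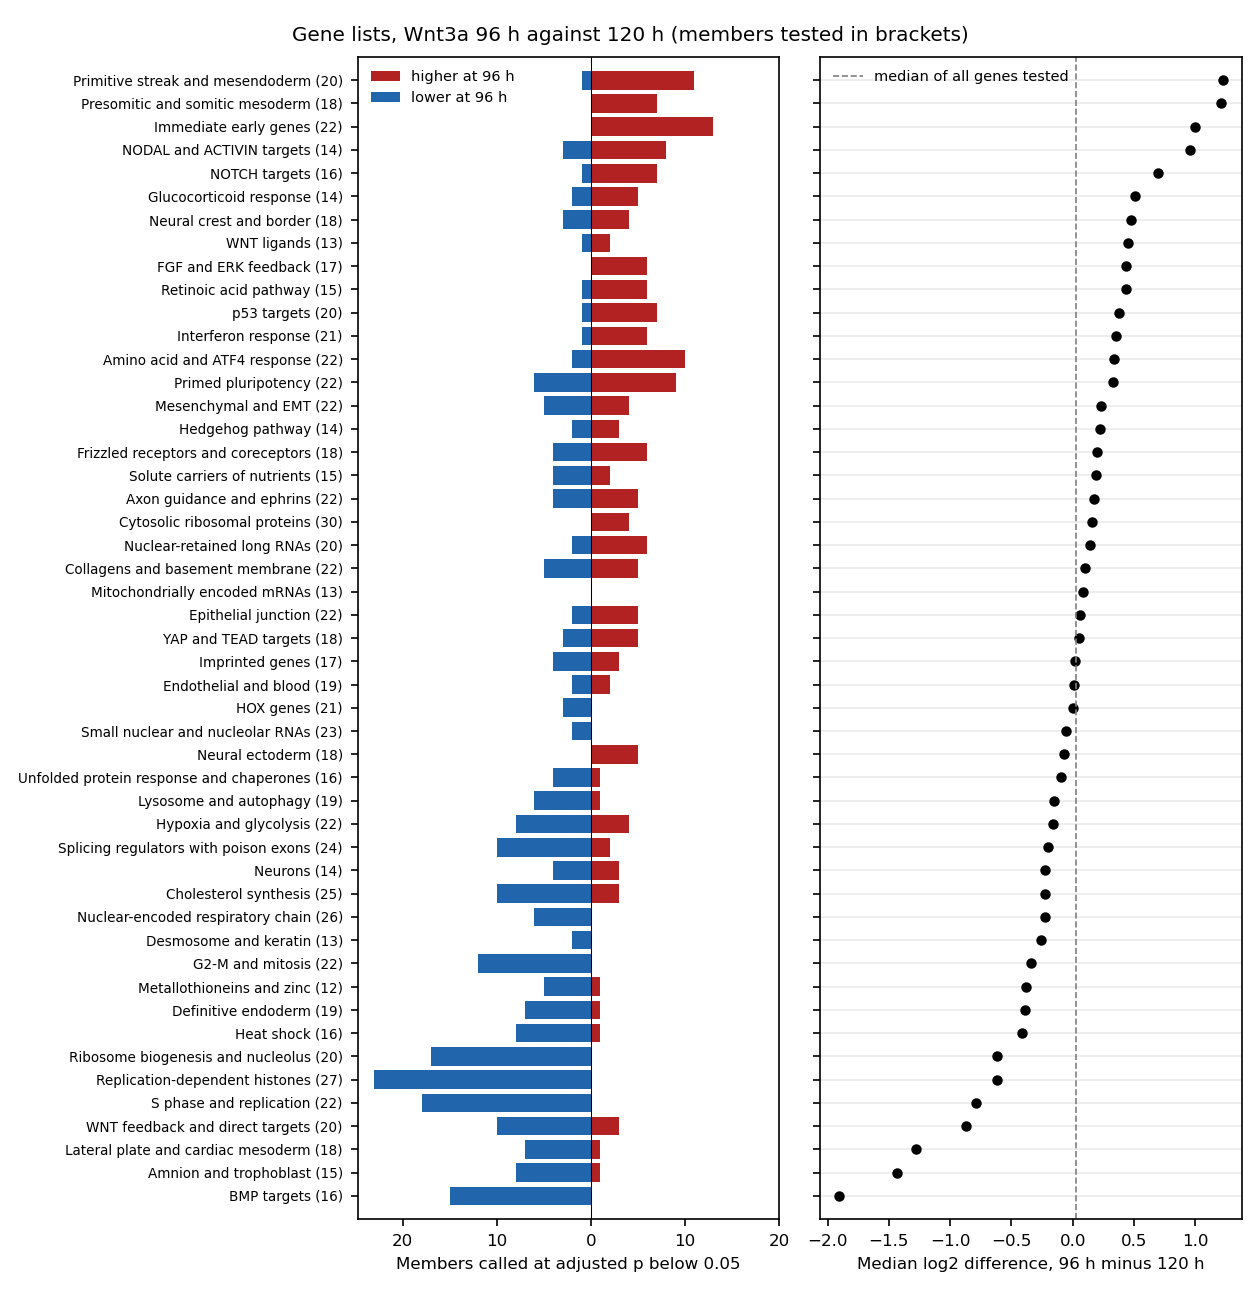
Gene lists, 1 per line, with the number of members called higher (red bars) and lower (blue bars) at 96 h on the left and their median log2 difference (points) on the right, where a dashed line marks the median of all genes. BMP targets have the lowest median, -1.90, and primitive streak genes the highest, 1.23.

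Lists of growth and stress genes come next, and for these the place of the 72 h library is to be read against the shares over all called genes, 76.4% outside for higher and 87.9% for lower genes. Replication genes were lower at 96 h in 18 of 22 members and higher in 0, with a median of -0.79. UHRF1, which recruits DNA methyltransferase to replicating DNA, was at 24.4 and 47.0 CPM at 96 h, at 83.2 and 94.0 at 120 h and at 101 at 72 h (-1.31 ± 0.18, adjusted p = 4.39e-06). PCNA, the sliding clamp, was at 44.7 and 84.3 CPM, then at 135 and 140, with 144 at 72 h (-1.09 ± 0.17, adjusted p = 1.84e-05). RRM2, a subunit of ribonucleotide reductase, was at 33.7 and 53.3 CPM, then at 114 and 94.3, with 137 at 72 h (-1.26 ± 0.16, adjusted p = 8.08e-07). In these 3 genes the 96 h libraries lay below both neighbouring hours, replicate 1 further than replicate 2. Both 96 h libraries lay below the 72 h and 120 h libraries in 17 of the 18 lower members (94.4%, against 87.9% of all lower genes).

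Promoters of replication genes are known targets of E2F factors, which act in late G1, and the sequences are shown since 18 genes of this list were lower together. The 8-base forms TTTCCCGC, TTTCGCGC, TTTGCCGC and TTTGGCGC were searched on both strands from 250 bases before to 50 bases after each start in RefSeq (GRCh38.p14). A match was present in 13 of 19 replication genes found in that table (68.4%), in 2 of 19 genes of mitosis (10.5%) and in 908 of all 27305 promoters (3.33%). The 250 bases before the start of 4 of the 13 are printed 5′ to 3′ along the gene's strand, with the match in capitals.
UHRF1, chr19:4909251-4909500, plus strand: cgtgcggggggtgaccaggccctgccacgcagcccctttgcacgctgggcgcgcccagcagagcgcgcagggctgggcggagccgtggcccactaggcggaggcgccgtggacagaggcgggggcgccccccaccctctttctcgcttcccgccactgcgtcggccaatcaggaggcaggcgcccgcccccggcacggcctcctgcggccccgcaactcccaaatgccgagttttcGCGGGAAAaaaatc
PCNA, chr20:5126623-5126872, minus strand: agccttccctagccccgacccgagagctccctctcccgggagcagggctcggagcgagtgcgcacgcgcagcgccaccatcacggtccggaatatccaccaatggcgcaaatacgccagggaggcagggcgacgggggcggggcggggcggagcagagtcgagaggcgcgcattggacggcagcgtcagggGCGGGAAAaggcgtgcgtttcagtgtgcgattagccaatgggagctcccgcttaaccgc
POLA1, chrX:24693668-24693917, plus strand: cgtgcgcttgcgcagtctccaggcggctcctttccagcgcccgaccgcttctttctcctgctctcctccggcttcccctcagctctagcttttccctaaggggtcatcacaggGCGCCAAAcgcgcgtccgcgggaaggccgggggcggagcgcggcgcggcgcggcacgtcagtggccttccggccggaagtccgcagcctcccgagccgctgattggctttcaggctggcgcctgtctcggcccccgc
GINS2, chr16:85688955-85689204, minus strand: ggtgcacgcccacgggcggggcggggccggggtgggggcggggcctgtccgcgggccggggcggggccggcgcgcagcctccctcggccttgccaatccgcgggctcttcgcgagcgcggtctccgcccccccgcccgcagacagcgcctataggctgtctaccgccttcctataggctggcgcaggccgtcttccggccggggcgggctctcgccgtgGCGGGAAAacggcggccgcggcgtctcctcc
POLA1, the catalytic subunit of the polymerase that primes DNA synthesis, was at 23.3 and 28.1 CPM, then at 51.9 and 54.6 (-1.05 ± 0.14, adjusted p = 1.71e-06), and GINS2, a part of the replicative helicase, at 16.3 and 22.7, then at 42.1 and 37.5 (-1.03 ± 0.14, adjusted p = 3.72e-06). A match describes the letters in the window and does not show binding.

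Histone genes expressed in S phase, whose transcripts end in a stem-loop, were lower at 96 h in 23 of 27 members and higher in 0, with a median of -0.61. HIST1H4H was at 37.2 and 53.8 CPM, then at 90.7 and 97.2, with 165 at 72 h (-1.05 ± 0.17, adjusted p = 3.63e-05), and HIST1H2BH was at 51.1 and 78.2, then at 106 and 159, with 220 at 72 h (-1.03 ± 0.18, adjusted p = 1.38e-04). Without 96 h replicate 1 the count fell to 7, and without 120 h replicate 2 it was 17, of which 16 were lower. Near-identical histone copies share reads, so the counts of single histone genes are uncertain. Genes of mitosis were lower in 12 of 22 and higher in 0, with a median of -0.34. CCNB1, the mitotic cyclin, was at 95.2 and 90.9 CPM, then at 154 and 137 (-0.65 ± 0.12, adjusted p = 2.16e-04), and CENPE, a kinetochore motor, at 46.3 and 62.1, then at 91.2 and 105 (-0.86 ± 0.15, adjusted p = 1.26e-04). All 12 lower mitotic genes and all 23 lower histone genes lay below the 72 h library as well, as did 87.9% of all lower genes.

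Ribosome assembly factors were lower at 96 h in 17 of 20 and higher in 0, with a median of -0.61. UTP20, part of the complex that processes the small subunit, was at 34.4 and 42.5 CPM, then at 97.1 and 73.2 (-1.15 ± 0.14, adjusted p = 7.06e-07), and NOP58, a core protein of box C/D particles, at 38.8 and 43.6, then at 85.8 and 90.1 (-1.09 ± 0.14, adjusted p = 2.46e-06). Ribosomal proteins did not follow: of 30, 4 were higher and 0 lower, with a median of 0.15, and 0 were called without 96 h replicate 1 and 9 without 96 h replicate 2, and 8 with scaling on protein-coding genes. Splicing regulators were lower in 10 of 24 and higher in 2, with a median of -0.20. SRSF2, an SR protein, was at 91.6 and 130 CPM, then at 285 and 289, with 285 at 72 h (-1.37 ± 0.12, adjusted p = 1.79e-09). SRSF6 (-1.26 ± 0.12), TRA2B (-1.21 ± 0.12) and SRSF3 (-1.12 ± 0.12), which belong to the same family or bind the same class of exons, were also lower. Each of these regulators holds an exon that can send its own transcript to decay, which gene counts do not resolve.

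Heat shock proteins were lower at 96 h in 8 of 16 and higher in 1, with a median of -0.41, and 5 were called without 96 h replicate 1. HSPA8, the constitutive HSP70, was at 783 and 838 CPM, then at 1927 and 1433, with 1738 at 72 h (-1.05 ± 0.13, adjusted p = 5.05e-07). Its partners DNAJA1 (83.7 and 101 CPM, then 239 and 230, -1.35 ± 0.14, adjusted p = 7.36e-08) and HSPH1 (47.7 and 62.0, then 137 and 173, -1.50 ± 0.15, adjusted p = 2.19e-08) followed it. All 8 lower members lay below the 72 h library, a count close to the 87.9% of all lower genes.

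Immediate early genes, which respond to growth factors within minutes, were higher at 96 h in 13 of 22 and lower in 0, with a median of 1.00, and 7 were called without 96 h replicate 1. EGR1, a zinc finger factor, was at 28.8 and 30.9 CPM at 96 h, at 8.45 and 5.35 at 120 h and at 7.33 at 72 h (2.11 ± 0.29, adjusted p = 4.53e-06). FOS, a partner of JUN in AP-1, was at 41.1 and 31.3 CPM, then at 13.4 and 14.6, with 14.7 at 72 h (1.38 ± 0.29, adjusted p = 8.16e-04). CYR61, a matricellular protein also counted among YAP targets, was at 192 and 106 CPM, then at 43.0 and 28.2, with 16.0 at 72 h (2.06 ± 0.22, adjusted p = 1.36e-07). In all 13 higher members the 96 h libraries lay above both neighbouring hours, as they did in 76.4% of all higher genes. The CArG box, the site of serum response factor, was searched by its consensus on both strands and found in 2 of 20 promoters of this list (10%), those of EGR1 and SRF, and in 351 of all promoters (1.29%). The 250 bases before the start of EGR1 are shown with 2 matches in capitals.
EGR1, chr5:138465229-138465478, plus strand: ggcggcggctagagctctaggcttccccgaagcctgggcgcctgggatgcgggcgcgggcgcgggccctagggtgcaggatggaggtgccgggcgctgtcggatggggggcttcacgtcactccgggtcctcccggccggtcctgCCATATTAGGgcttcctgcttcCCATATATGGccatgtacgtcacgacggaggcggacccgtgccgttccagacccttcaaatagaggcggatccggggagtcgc

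YAP and TEAD targets, which respond to cell shape and density, were higher in 5 of 18 and lower in 3, with a median of 0.05. The balance turned with single libraries: 2 were higher and 3 lower without 96 h replicate 1 or without 120 h replicate 2, and 7 higher and 1 lower without either of the others. CTGF, a matricellular protein, was at 183 and 118 CPM, then at 46.6 and 38.7, with 21.7 at 72 h (1.82 ± 0.16, adjusted p = 3.73e-09). THBS1, a matrix glycoprotein, was at 326 and 134 CPM, then at 117 and 46.5 (1.49 ± 0.36, adjusted p = 0.00491), and its call was lost without 96 h replicate 1 (0.71, adjusted p = 0.204) or 120 h replicate 2 (0.94, adjusted p = 0.0783). The 96 h level of THBS1 was set mainly by replicate 1. Of 20 p53 targets 7 were higher and 1 lower, with a median of 0.38, and without 120 h replicate 1 only 3 were higher and 2 lower. GDF15 was at 16.3 and 5.29 CPM, then at 0.852 and 1.07, with 0.630 at 72 h (3.49 ± 0.45, adjusted p = 2.19e-06). CDKN1A, the cyclin-dependent kinase inhibitor p21, was at 17.0 and 20.1 CPM, then at 10.7 and 11.6, with 4.97 at 72 h (0.73 ± 0.23, adjusted p = 0.0177). MDM2, the p53 ubiquitin ligase, differed by -0.03 ± 0.13 (adjusted p = 0.931).

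RNA classes differed between the hours along with these genes. The lincRNA genes had a median difference of 0.36 (701 genes, 57 higher and 13 lower) and the antisense genes one of 0.22 (661 genes, 48 and 15). The 16112 protein-coding genes had a median of 0.00 (2223 and 2680). Only 8.13% of lincRNA genes were called higher, a smaller share than the 13.8% of coding genes. Among coding genes those of the longest genomic span, from 151135 bp up, had a median of 0.15, with 352 higher and 179 lower of 2014. Spans of 20810 to 32537 bp had the lowest median, -0.09, with 224 and 414. The shortest spans, up to 6329 bp, had 0.008, with 286 and 315, so the median did not rise steadily with span. The lincRNA share of all counts was 0.469% ± 0.0340 at 96 h (mean ± SD, n = 2) and 0.336% ± 0.0107 at 120 h, and the other Wnt3a hours lay between 0.225% and 0.352%. Mitochondrial ribosomal RNA took 14.1% and 14.3% of the counts at 96 h, 8.62% and 11.2% at 120 h and 9.17% at 72 h. Shares of 2 libraries against 2 were not tested, since an exact permutation test cannot go below p = 0.333 there. How far the class shift takes part in the gene differences was not tested.

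LINC00458, a long RNA expressed in embryonic stem cells, was at 281 and 242 CPM at 96 h, at 64.7 and 59.0 at 120 h and at 174 at 72 h (2.08 ± 0.16, adjusted p = 4.49e-10). MALAT1, a nuclear long RNA, was at 1310 and 1216 CPM, then at 626 and 759 (0.87 ± 0.21, adjusted p = 0.00374), and its call was lost without 120 h replicate 1 (0.72, adjusted p = 0.0669). NEAT1, the scaffold of paraspeckles, was at 37.1 and 30.5 CPM, then at 28.1 and 9.70, and was not called (0.83 ± 0.40, adjusted p = 0.155). With 1 library left out the NEAT1 difference ran from 0.24 to 1.78, the latter without 120 h replicate 1. PCAT14 was the opposite case among long RNAs, at 31.1 and 35.4 CPM, then at 171 and 211, with 8.59 at 72 h (-2.52 ± 0.21, adjusted p = 6.93e-09). Both hours were thus clearly apart in LINC00458 and PCAT14, in opposite directions.

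**Figure D4:**
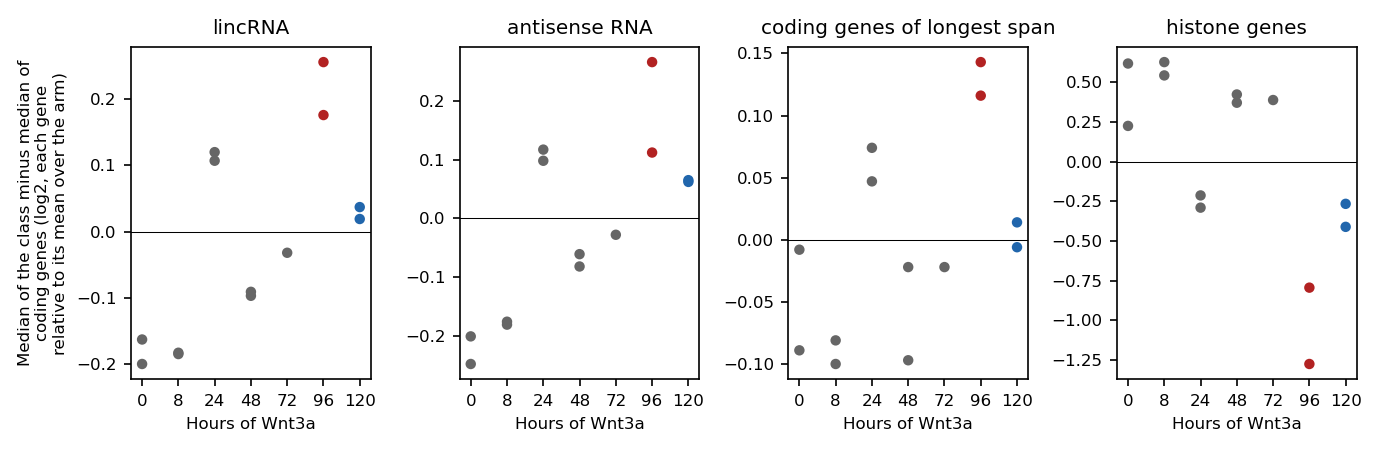
Median log2 level of gene classes relative to protein-coding genes in each Wnt3a library (vertical axis) by hour (horizontal axis), 1 point per library. The lincRNA genes lie at 0.18 and 0.26 at 96 h and at 0.12 and 0.11 at 24 h, and histone genes lie lowest at 96 h, at -1.27 and -0.79.

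Set against the mean of 72 h and 120 h in the same fit, 5417 genes were called at 96 h, 2452 higher (10.1%) and 2965 lower (12.2%), and 2716 without 96 h replicate 1. Here and below, the mean of 2 hours is the mean of their fitted log2 levels, not of their CPM. The growth and stress lists were called about as often as, or more often than, against 120 h: histones were lower in 25 of 27 (median -0.98), mitotic genes in 19 of 22 (-0.52), replication genes in 17 of 22 (-0.81) and ribosome assembly factors in 18 of 20 (-0.55). Immediate early genes were higher in 17 of 22 (1.21) and YAP targets in 8 of 18 with 1 lower (0.47). Developmental lists varied. BMP targets were lower in 7 of 16 and higher in 1 (-0.55), streak genes were higher in 7 of 20 and lower in 3 (0.12), and amnion and trophoblast genes were lower in 1 of 15 and higher in 1 (-0.16), fewer calls than against 120 h. NOTCH pathway genes, higher in 7 of 16 and lower in 0 (0.56), and the retinoic acid pathway, higher in 6 of 15 and lower in 2 (0.17), had about as many. This comparison shares the 96 h and 120 h libraries with the first, so the counts stand side by side and are no separate evidence.

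The 48 h libraries, the nearest earlier hour with 2 distinct libraries, give the wider course. Against 48 h, 3592 genes (14.8%) were called at 120 h and 7376 (30.3%) at 96 h. Counts of calls also depend on depth, which was greater at 96 h than at 120 h, so they are no measure of distance. At 120 h, 16 of 16 BMP targets were higher than at 48 h and 13 of 20 streak genes were lower, with 3 higher. Histones were lower in 25 of 27, mitotic genes in 14 of 22, and replication genes in 9 of 22 with 1 higher. Without 48 h replicate 2, 2149 genes were called at 120 h.

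The other Wnt3a hour at which lincRNA genes and mitochondrial ribosomal RNA stood high was 24 h, and a comparison of 24 h with the mean of 8 h and 48 h was added after this had been seen. The lincRNA median relative to coding genes was 0.12 and 0.11 at 24 h, and 0.04 and 0.02 at 120 h. By share of counts lincRNA was close at these hours, 0.352% and 0.345% at 24 h and 0.328% and 0.343% at 120 h. The comparison of 24 h called 2860 genes higher (11.8%) and 3252 lower (13.4%), and shares no library with the comparison of 96 h with the mean of 72 h and 120 h. With upper-quartile scaling 3715 were higher and 2610 lower. Without 24 h replicate 1, 3646 genes were called, and 3215 without 24 h replicate 2. Of the genes higher at 96 h, 1196 were also higher at 24 h, which is 48.8% of the former and 41.8% of the latter, and 40 were lower. Of those lower at 96 h, 1963 were also lower at 24 h, 66.2% and 60.4%, and 25 were higher. Across 11581 genes with a mean of at least 5 CPM the differences at the 2 hours correlated with r = 0.657, as a description over genes, which are not independent. A gene that rises or falls steeply from 8 h to 48 h, or from 72 h to 120 h, can also differ from the mean of those hours, so a call here does not by itself place the middle hour outside its neighbours.

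The next genes were picked from those called in the same direction at both hours, so they illustrate that group and are no evidence for it. CYR61 was at 75.0 and 84.4 CPM at 24 h, between 13.1 and 12.5 at 8 h and 10.99 and 11.6 at 48 h (2.73 ± 0.18 against their mean, adjusted p = 3.97e-11), and it differed by 2.64 ± 0.21 at 96 h from the mean of 72 h and 120 h. PDGFB, a platelet-derived growth factor, differed by 3.32 ± 0.31 at 24 h and 2.46 ± 0.35 at 96 h, and GRPR, the receptor of gastrin-releasing peptide, by 2.13 ± 0.16 and 1.84 ± 0.18. On the low side NCOA5, a nuclear receptor coactivator, was at 14.2 and 11.6 CPM at 24 h against 48.1 and 50.5 at 8 h and 38.0 and 39.0 at 48 h (-1.77 ± 0.17), and at 5.47 and 9.12 CPM at 96 h (-2.28 ± 0.18). DHRS2, a short-chain dehydrogenase, differed by -3.38 ± 0.38 and -3.76 ± 0.44. In each of these genes the libraries of 24 h and of 96 h stood apart from those of their neighbouring hours in the same direction.

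Among lists, histones were lower at 24 h than the mean of 8 h and 48 h in 24 of 27 and replication genes in 17 of 22, with 0 higher in both, and immediate early genes were higher in 14 of 22 with 0 lower. WNT targets were lower in 9 of 20 and higher in 3. AXIN2 was at 12.7 and 12.7 CPM at 24 h, against 60.9 and 63.0 at 8 h and 40.9 and 37.9 at 48 h (-1.96 ± 0.18, adjusted p = 1.55e-08), and both 24 h libraries were below those of both hours beside them, as at 96 h. Mitotic genes did not repeat the 96 h pattern, with 5 higher and 1 lower of 22 at 24 h. BMP targets were higher in 4 of 16 and lower in 1. Streak genes were below the mean of 8 h and 48 h in 15 of 20 with 0 above it (median -2.47), but they were not below 8 h as a list: their median level was 1.48 and 1.49 CPM at 8 h, 1.66 and 1.66 at 24 h and 25.7 and 31.3 at 48 h. FGF17, for example, was at 0.185 and 0.211 CPM at 8 h, 0.714 and 0.725 at 24 h and 148 and 190 at 48 h (-3.03 against the mean, adjusted p = 7.40e-04), so that 24 h lay between its neighbours. LHX1, a LIM homeobox factor of the streak, was at 0.416 and 0.296 CPM, then at 0.389 and 0.213, and at 26.0 and 28.1 at 48 h (-3.39, adjusted p = 0.00131). The difference between the 24 h and 96 h effects was not tested.

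**Figure D5:**
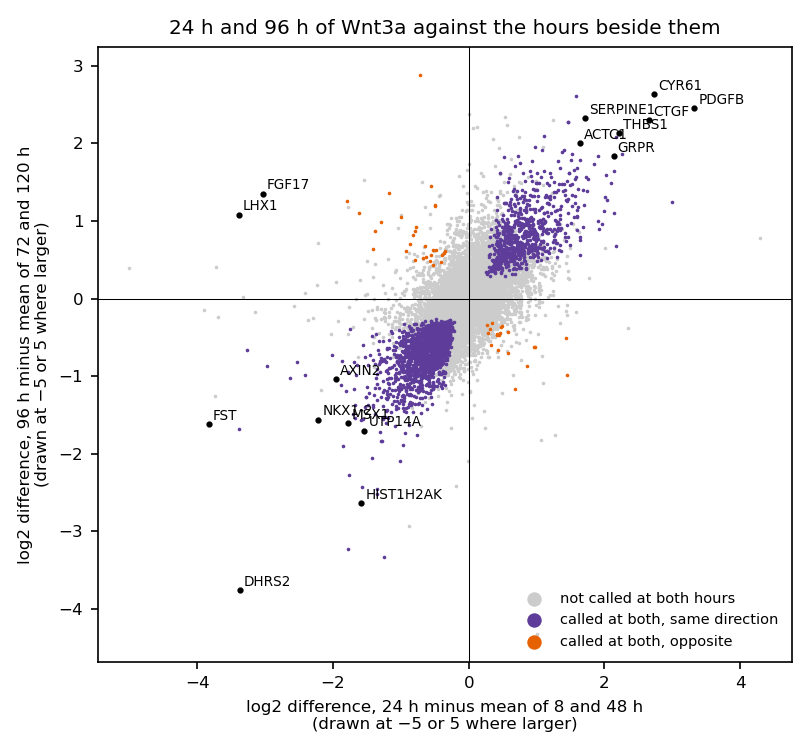
Log2 difference of 96 h from the mean of 72 h and 120 h (vertical axis) against that of 24 h from the mean of 8 h and 48 h (horizontal axis). Each point is a gene with a mean of at least 5 CPM over the Wnt3a libraries, and other genes are not drawn. Genes called in both comparisons are in colour, and differences past 5 are drawn at 5. CYR61, CTGF and PDGFB lie at the upper right, DHRS2 at the lower left, and FGF17 and LHX1, whose levels were below 1 CPM at 8 h and 24 h and above 25 CPM at 48 h, at the upper left.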

How the data were processed

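Total RNA was sequenced from 38 samples in 19 groups of 2. The deposited table is called raw counts by the authors, and kallisto 0.43.0 is named in the submitters' processing notes, which makes the values estimated counts. No genome build or annotation is named (not given in the sources used here). In the table each column held estimated counts times 1 constant per library (0.265 to 6.58). Each was divided by its constant, which brought 56.8% to 81.1% of values up to 20 to within 0.1 of a whole number, then rounded. The table's 43412 symbols were given types from GENCODE release 29, which placed 29901 once, and 27 symbols that had become dates are never named.

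All 37 distinct libraries were fitted together with edgeR 4.0.16 (R 4.3.3), by quasi-likelihood, with 1 mean for each of 19 groups, 18 residual degrees of freedom, TMM scaling, trended dispersions (0.00921 to 0.246), robust estimation and filterByExpr, which left 24304 genes. The lone 72 h library is assumed to vary like the others. Benjamini-Hochberg adjustment ran over all genes of a comparison, and genes were called below 0.05. The steps were tested on simulated data. The comparisons, gene lists and genes were chosen with earlier results of these data known, so lists are described by counts and medians and not tested. A list member was counted when called over all genes.

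Named genes were the 15 coding genes and 6 others per direction with the largest called difference, no overlap and a mean of 5 CPM or more where higher, up to 4 members per list, and AXIN2, SP5, LEF1, CTNNB1, T, POU5F1, NANOG, SOX2, MALAT1 and NEAT1. KRT7, SOX17, MDM2, CDKN1A, EOMES, ID1 to ID4, CFC1, the BMP ligands other than BMP6, GINS2 and further list members were chosen with their values in view. Not every gene the rule picked is printed, and a result for 1 of them is not reported here. Bounds on folds cover counting error only. Promoter sequences are from RefSeq (GRCh38.p14). The same genes were refitted with DESeq2 1.42.0 and with other scalings, filters and libraries.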

Additional observations from a re-analysis of the deposited data

How the results depend on the processing

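Calls for 96 h against 120 h numbered 5537, and 5850 with DESeq2's size factors, 5818 with upper-quartile scaling, 5697 with its Wald test, 4852 with no filter and 5931 without the 4 libraries in doubt (over 30% ribosomal RNA or under 3 M counts). A test against a log2 difference of 0.58 left 1161, 753 for 96 h against the mean of 72 h and 120 h, 1036 for 120 h against 48 h, 2381 for 96 h against 48 h and 952 for 24 h against the mean of 8 h and 48 h. With only the groups compared in the fit the counts were 2917, 2677 and 2062 for the first 3 of these, and 6411 (from 7376) and 7456 (from 6112) for the last 2. With 1 library left out they ran from 3049 to 5044, from 2716 to 5273, from 2149 to 2827, from 5331 to 6341 and from 3215 to 5411. The number of genes called thus moved, in either direction, with the libraries that share the estimate of spread. With the gene classes taken from symbols the log2 ratio of shares was 0.255 in place of 0.48 for lincRNA and -0.091 in place of 0.17 for small nuclear and nucleolar RNA. Of 3285 pairs of named gene and setting, 3022 kept their direction and side of the threshold, 255 lost a call, 8 gained one and 0 reversed. TMM on protein-coding genes moved the median of all genes from 0.03 to 0.08 at 96 h against 120 h and from 0.06 to 0.13 against the mean of 72 h and 120 h. At 11.2 to 17.2 M counts, genes under about 1 CPM rest on few counts.

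Replicate numbers are shared by the groups. The difference of replicate 1 from replicate 2 at 96 h correlated with that at 120 h at 0.10 across 16021 genes. With only 2 libraries per hour this cannot show whether libraries of equal number shared a culture or batch. The main fit used no pairing. With the replicate block in the Wnt3a arm 4334, 4197, 2665, 6341 and 5092 genes were called in the 5 comparisons in the order above, against 4403 and 4268 in that arm without the block for the first 2.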

Other observations

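Further lists of metabolism, stress and matrix were called in varying directions, where 11% of all genes tested were called higher and 11.8% lower. Cholesterol synthesis genes were lower at 96 h than at 120 h in 10 of 25 and higher in 3, with a median of -0.23. ACAT2, which makes acetoacetyl-CoA, was at 51.2 and 55.4 CPM, then at 123 and 100 (-1.07 ± 0.14, adjusted p = 3.43e-06), with 142 at 72 h. Genes of the amino acid and ATF4 response were higher in 10 of 22 and lower in 2, with a median of 0.33, and 5 were called without 96 h replicate 1. DDIT4, an inhibitor of mTORC1, was at 56.7 and 23.3 CPM, then at 6.48 and 8.49 (2.42 ± 0.33, adjusted p = 1.85e-05), with 10.0 at 72 h. SLC7A5, an amino acid transporter of the same list, went the other way, at 96.1 and 108 CPM, then 363 and 174 (-1.39 ± 0.22, adjusted p = 7.00e-05). Genes of hypoxia and glycolysis were higher in 4 of 22 and lower in 8, and without 96 h replicate 2 higher in 6 and lower in 5. Collagens and basement membrane proteins were higher in 5 of 22 and lower in 5, and without 120 h replicate 1 higher in 6 and lower in 3. COL6A2, a chain of collagen VI, was at 442 and 346 CPM, then at 117 and 135 (1.65 ± 0.15, adjusted p = 1.08e-08). Imprinted genes were higher in 3 of 17 and lower in 4, with only 1 higher and 2 lower without 120 h replicate 2. PEG10, a paternally expressed gene, was at 107 and 108 CPM, then at 242 and 497 (-1.78 ± 0.20, adjusted p = 3.31e-07).

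Some genes differed many-fold between the 2 libraries of an hour, some by a high level in 1 library and others by near absence from 1. At 5 CPM or more, 6 genes differed over 8-fold between the replicates of 96 h and 17 between those of 120 h, and 7 of these were called between the hours. FGF23, a hormone of phosphate balance, was at 449 CPM in 120 h replicate 2 and at 1.83 in replicate 1, against 3.97 and 4.16 at 96 h. AC009404.2 was at 1494 CPM in that library and at 1.57 in replicate 1. NPPB, a natriuretic peptide, was at 25.2 CPM in 120 h replicate 1 and at 1.71 in replicate 2. The other 4 were RBKS, FAM60DP, NPM1P40 and RP11-325O24.5. Their calls rest on a single library, and the cause was not tested.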
